A study of Caenorhabditis elegans with 15 samples.

Results

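The genes described here encode the peroxisomal enzymes that shorten the side chains of ascarosides in Caenorhabditis elegans. They were chosen by name from a list of 10 genes: the acyl-CoA oxidase genes acox-1.1, acox-1.2, acox-1.3, acox-1.4, acox-1.5, acox-1.6 and acox-3, the hydratase gene maoc-1, the dehydrogenase gene dhs-28 and the thiolase gene daf-22. Of these, 8 of the 10, among 17118 genes with a probe set of their own on the array, had a probe set annotated to them alone. They took up 9 of the 22548 probe sets that were not controls, since dhs-28 had a pair. The other 2, acox-1.3 and acox-1.4, occurred only together in the annotation of 1 shared probe set, whose signal cannot be assigned to either gene. It is given beside the members and is not counted among them. Transcripts were measured on 15 single-channel Affymetrix arrays, 3 biological replicates in each of 5 groups, from whole wild-type N2 worms grown at 20 °C on agar with OP50 bacteria. All worms were exposed from the start of life and harvested on day 1 of adulthood. The exposures were filtrate of Lake Stößensee sampled in August or in October, both at 200% of the original content of AOBr (read as adsorbable organic bromine), and a filtered culture of Microcystis aeruginosa, a cyanobacterium, at 40% of its original content. Water was the control of the lake filtrates and Z-medium the control of the culture. Filtering and freeze-drying are mentioned in the labels for these exposures but not for the controls, so a difference from a control can include that handling.

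Ascarosides are signalling molecules built from the sugar ascarylose and a fatty acid-like side chain, and worms release them as pheromones that report population density, promote dauer formation and guide mating and avoidance. The side chain is shortened in peroxisomes by repeated rounds of beta-oxidation. In each round an acyl-CoA oxidase introduces a double bond, MAOC-1 adds water, DHS-28 oxidises the resulting hydroxyl group and the thiolase DAF-22 cuts off an acetyl-CoA. The acyl-CoA oxidases work as homodimers and heterodimers that prefer side chains of different length and type, so the set of oxidases shapes the mixture of pheromones. The same peroxisomal route also breaks down other long fatty acids.

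Values are linear probe set signals scaled by the authors to a common array mean, and a change is a difference of mean log2 signals with its standard error from limma, fitted across all groups and adjusted by the Benjamini-Hochberg method over the 13529 probe sets with a mean signal of at least 57.9. All 9 member probe sets passed that filter, in every group as well as on average. Signals of different probe sets are not compared as levels, because brightness depends on the probes. Median signals of the arrays were 99.2 to 113. Of the 13529 probe sets, 18.1% differed between the replicate 1 arrays and the others in limma, and every group held 1 of these arrays. In whole worms, fewer cells of a type and less RNA per cell cannot be told apart. All 6 intestine and all 6 hypodermis and cuticle markers, those of the tissues in which this pathway is known to be active, were above the filter.

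A single member passed the test in any exposure against its control, which does not show that the other members were unchanged. The gene acox-1.5, for an acyl-CoA oxidase, had lower signal in worms raised with the M. aeruginosa culture, and no member passed the test in either lake filtrate. Over all 9 member probe sets, acox-1.5 included, coefficients of variation within a group were 0.495% to 35.8% (median 10.3%, over 45 values). When the 5 groups were ordered by level for each of these probe sets, 34 of 36 neighbouring pairs of groups had overlapping arrays. The exceptions were August and culture, for acox-1.5 and for acox-1.2. In the other pairs the means differed by less than the larger of the SDs. Neighbours in such an order are the closest groups, so neither the count nor the comparison with the SDs covers groups further apart. Some of those did not overlap, such as maoc-1 in October and in water. The share over all probe sets was not computed, so the count does not show whether the members overlapped more often than other probe sets.

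**Figure D1:**
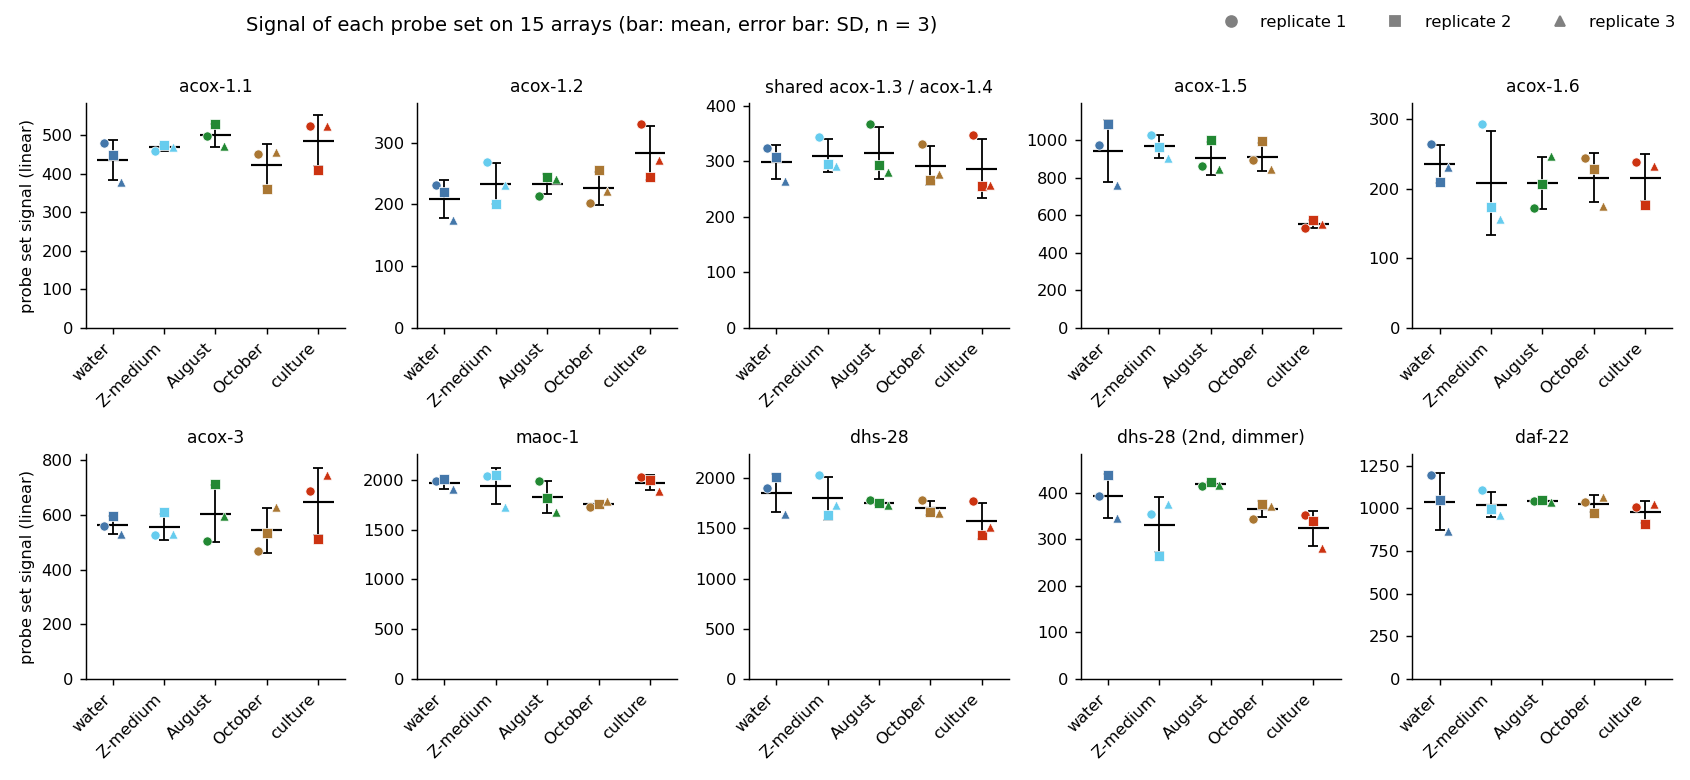
Linear probe set signal (y axis, from 0) of the 9 member probe sets and of the probe set shared by acox-1.3 and acox-1.4, by group (x axis), with 1 point per array, the marker shape giving the replicate number, a bar for the mean and an error bar for the SD (n = 3). The culture arrays of acox-1.5 lie at 531 to 576, below all 12 other arrays (762 to 1088), while the groups of the other members largely overlap.

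The acyl-CoA oxidase genes carry out the first step of each round, and acox-1.5 was the one that passed the test, as lower in the culture. Its signal in Z-medium was 1028, 966 and 904 in replicates 1 to 3, and in the culture it was 531, 576 and 553. In water it was 974, 1088 and 762, in August 861, 1003 and 846, and in October 894, 994 and 848. All 3 culture arrays thus lay below all 12 others, which was so for 1 of 9 member probe sets and for 3.61% of all probe sets. The mean fell from 966 ± 61.7 in Z-medium to 553 ± 22.3 in the culture (SD, n = 3), a 1.74-fold drop with a 95% interval of 1.46 to 2.08. The log2 change was -0.80 ± 0.12 (limma adjusted p = 0.00210), the 40th smallest p of 13529. It was lower in 3 of 3 arrays. The call was kept in all 15 alternative settings run, with adjusted p between 4.61e-05 and 0.0227, including each of the 6 fits without 1 array (0.00633 to 0.0150).

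Outside the culture, acox-1.5 passed no test, and its water arrays were the most spread, with the lowest at 762. The order of group means was Z-medium (966), water (941), October (912), August (903) and culture (553), and each neighbouring pair overlapped except August and culture. The gap between those was 4.04 times the larger of their SDs. Its change was -0.05 ± 0.12 in August and -0.03 ± 0.12 in October against water, with 95% intervals of 0.811 to 1.23-fold and 0.819 to 1.25-fold. Z-medium against water gave 0.05 ± 0.12. Without water replicate 3, the array at 762, these changes were -0.19 in August, -0.18 in October and -0.09 in Z-medium, none past the test.

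Of the other oxidase genes, acox-1.1 encodes the enzyme that acts alone and as the partner of ACOX-1.3 and ACOX-1.4. Its arrays read 478, 449 and 378 in water, 458, 475 and 470 in Z-medium, 497, 530 and 471 in August, 451, 360 and 456 in October, and 524, 409 and 525 in the culture. The Z-medium arrays were the closest to each other, and the groups overlapped except for October, whose arrays all lay below those of August and of Z-medium. The change in the culture was 0.04 ± 0.13 (limma adjusted p = 0.898).

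The gene acox-1.2, whose enzyme acts on ascarosides linked at the end of the side chain, had its highest group mean in the culture. Its culture arrays read 331, 245 and 272, against 268, 201 and 232 in Z-medium, 232, 219 and 174 in water, 214, 244 and 241 in August and 202, 255 and 222 in October. The culture arrays overlapped those of Z-medium and October, lay above those of water, and were barely clear of the highest August array. The change against Z-medium was 0.27 ± 0.16 and did not pass (limma adjusted p = 0.422), with an interval of 0.958 to 1.53-fold.

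The acyl-CoA oxidase gene acox-3 also had its highest mean in the culture, at 649 ± 123 against 555 ± 48.0 in Z-medium (SD, n = 3). Replicate 2 of the culture, at 511, lay below all 3 Z-medium arrays (525, 610 and 529), while the other culture arrays, at 687 and 747, lay above them. The change was 0.21 ± 0.15 (limma adjusted p = 0.537), or 0.37 without culture replicate 2, still not past the test (0.340).

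The gene acox-1.6 was the noisiest member. In Z-medium it read 293, 174 and 157, so the coefficient of variation of that group was 35.8%, and its group means, between 208 and 235, were ordered by differences smaller than their spread. Its change in the culture was 0.10 ± 0.22, with an interval of 0.770 to 1.48-fold. Without Z-medium replicate 1, the array at 293, it was 0.37 and still did not pass (limma adjusted p = 0.571), and Z-medium against water was then -0.50. This width leaves changes of moderate size undetectable for acox-1.6 with 3 arrays a group.

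The probe set shared by acox-1.3 and acox-1.4 read 344, 296 and 291 in Z-medium and 348, 256 and 257 in the culture, and its change was -0.12 ± 0.15 (limma adjusted p = 0.738). In all 5 groups its replicate 1 array was the highest. In RefSeq's assembly WBcel235, acox-1.1 to acox-1.4 lie next to each other on chromosome I with no other protein-coding gene between them, while acox-1.5, acox-1.6 and acox-3 lie on chromosomes III, X and IV. The probe sets of acox-1.5, acox-1.6, acox-3 and daf-22 carry a suffix (_s_at) by which the manufacturer marks probes that can match several similar transcripts, so signal from a close relative was not separated there.

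Among the genes of the later steps, maoc-1, daf-22 and the brighter of the dhs-28 probe sets had standard deviations over the 15 arrays at the 11.2, 15.6 and 26.6 percentiles of the probe sets tested, and the dimmer dhs-28 probe set at the 55.2 percentile. The gene maoc-1, which encodes the hydratase which acts after the oxidases, was the steadiest member, with a standard deviation of 0.10 in log2 signal. Its arrays read 1985, 2006 and 1902 in water, 2034, 2052 and 1728 in Z-medium, 1991, 1812 and 1674 in August, 1723, 1761 and 1782 in October, and 2030, 1998 and 1888 in the culture. The October arrays lay below the water arrays without overlap. The change in October was -0.16 ± 0.08 and did not pass (limma adjusted p = 1.00), and 7.56% of all probe sets also had arrays that did not overlap in that comparison. In the culture the change was 0.03 ± 0.08, with an interval of 0.903 to 1.15-fold.

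The dehydrogenase gene dhs-28, which acts after the hydratase, was read by 2 probe sets that disagreed in part. The brighter one read 2035, 1632 and 1728 in Z-medium and 1776, 1435 and 1511 in the culture, where it had its lowest group mean (1574 ± 179, SD, n = 3). Its change in the culture was -0.19 ± 0.10 (limma adjusted p = 0.384), with an interval of 0.753 to 1.02-fold. The dimmer one, whose suffix (_x_at) marks probes that may cross-hybridise, had a change of -0.02 ± 0.14 there (limma adjusted p = 0.958), and against water its sign was opposite to that of the brighter one in August (0.10 ± 0.14 and -0.07 ± 0.10). The dimmer one read 355, 264 and 377 in Z-medium, so replicate 2 of that control stood low. Without that array its change in the culture was -0.18, still not past the test (limma adjusted p = 0.530).

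The thiolase gene daf-22 completes each round, and worms lacking it make no dauer pheromone. Its group means lay between 981 in the culture and 1044 in August, a narrower relative span than for any other member. The water arrays, at 1198, 1051 and 865, covered the whole range of the gene, and the August arrays, at 1044, 1049 and 1039, were within a coefficient of variation of 0.495%. The change in the culture was -0.06 ± 0.11 (limma adjusted p = 0.823), with an interval of 0.821 to 1.12-fold. Its changes in August and October were 0.02 ± 0.11 and -0.00 ± 0.11.

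**Figure D2:**
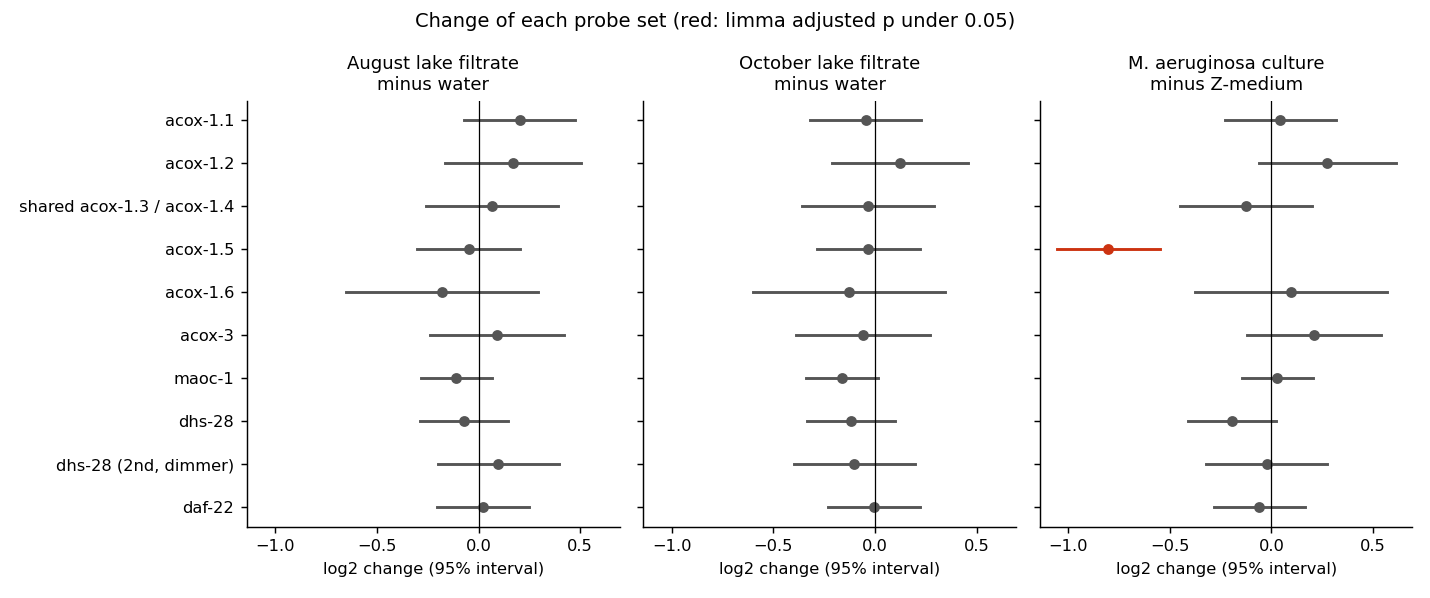
Log2 change (x axis) of each member probe set and of the shared acox-1.3 and acox-1.4 probe set, as the limma estimate with its 95% interval, in the 3 exposures against their controls. Only acox-1.5 in the culture, at -0.80, passed the test (red), and the intervals of the other 8 member probe sets in that panel run from -0.41 to 0.61.

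The August filtrate was compared with water to ask which transcripts differ in worms raised with lake water of that month. Of the 9 member probe sets 0 passed in limma, as did 0.00739% of all probe sets, and 0 had an unadjusted p under 0.05 (3.05% of all). Member changes ranged from -0.18 for acox-1.6 to 0.20 for acox-1.1, with a median of 0.02 against -0.01 over all probe sets, and 5 of 9 were positive (48.5% of all probe sets). For acox-1.1 the August mean was 499 ± 29.6 against 435 ± 51.5 in water (SD, n = 3), a change of 0.20 ± 0.13 with an adjusted p of 1.00. The 95% intervals of the 9 probe sets together spanned 0.635 to 1.42-fold.

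In the October filtrate, again against water, 0 of 9 member probe sets passed in limma, as did 0% of all probe sets, and 0 had an unadjusted p under 0.05 (2.11% of all). A negative change was seen in 8 of 9, for 48.9% of all probe sets. The values were small, from -0.16 for maoc-1 to 0.12 for acox-1.2, with a median of -0.06 against 0.00 over all probe sets. The members were read from the same 6 arrays, so their common sign is not a count of independent results.

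Between the lake samples, October against August, 0 of 9 member probe sets passed in limma (0.0148% of all), and 0 had an unadjusted p under 0.05 (2.59% of all). The arrays did not overlap for 2 of 9, against 7.55% of all probe sets. These were acox-1.1, at 451, 360 and 456 in October against 497, 530 and 471 in August (change -0.25 ± 0.13), and the dimmer dhs-28 probe set, at 345, 376 and 373 against 414, 423 and 418 (-0.20 ± 0.14), each with an adjusted p of 1.00. The brighter dhs-28 probe set had a change of -0.05 ± 0.10 in the same comparison.

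The culture was compared with Z-medium to ask which transcripts differ in worms raised with cyanobacterial material. Of the 9 member probe sets 1 passed in limma, acox-1.5, which fell, and 8 did not, while 1.54% of all probe sets passed and 1.19% passed as lower. It was also the 1 member with an unadjusted p under 0.05 (15.2% of all) and the 1 whose culture and Z-medium arrays did not overlap (19.1% of all). The member median was 0.03 against 0.00 over all probe sets. Among the other 8 the changes ran from -0.19 to 0.27 (adjusted p between 0.384 and 0.958), and their 95% intervals from 0.753 to 1.53-fold did not reach the estimate for acox-1.5 of 0.573-fold. The difference between acox-1.5 and the other members was not tested.

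Whether the culture changed acox-1.5 by more than the lake filtrates did was tested as the difference of both effects, with the lake filtrates averaged. It was -0.76 ± 0.16 on the log2 scale and did not pass (limma adjusted p = 0.0718), and 0.266% of all probe sets passed. It had the 1 unadjusted p under 0.05 among the members (8.54% of all). Without water replicate 2, the highest array of the gene at 1088, it passed (-0.87, adjusted p = 0.0358). Over 23 alternatives the adjusted p lay between 0.00216 and 0.193, and 2 passed, that one and the fit with replicate number as a block (0.00216). The other 8 member probe sets had values of -0.10 to 0.25 (adjusted p of 0.706 or more).

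The controls themselves, Z-medium against water, were compared to see how far the 2 backgrounds differ. Of the 9 member probe sets 0 passed in limma (0.0222% of all), and 0 had an unadjusted p under 0.05 (2.34% of all). The values lay between -0.25 for the dimmer dhs-28 probe set and 0.17 for acox-1.2, with a median of -0.02.

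The replicate 1 arrays stood apart over the whole array, and 8 of 9 member probe sets were higher on them on average, without passing the test. The share of all probe sets that were higher on them was not computed. The members were read from the same arrays, so their common sign is not a count of independent results. In a fit with a term for replicate 1, 0 of 9 member probe sets passed in limma against 18.1% of all, and the smallest adjusted p was that of the brighter dhs-28 probe set (0.15 ± 0.06 higher in replicate 1, adjusted p = 0.0755). That probe set and acox-1.6 had replicate 1 as the highest array in 4 of 5 groups. The value for acox-1.5 was 0.00 ± 0.08. The shared acox-1.3 and acox-1.4 probe set did pass, at 0.30 ± 0.07 higher in replicate 1 (adjusted p = 0.00617).

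The probe sets with the pattern most like that of acox-1.5 were sought among 12820 others with 1 gene symbol, by Pearson's r of log2 signal over the 15 arrays. The 5 highest belonged to 4 genes: C17H12.8 on both of its listed probe sets (r = 0.937 and 0.933), the C-type lectin gene clec-265 (0.936), the lysozyme gene lys-4 (0.935) and kel-8, of the kelch repeat family (0.934). Arrays of each group share their exposure, and over the 12 arrays without the culture r was lower, between 0.439 and 0.791, the highest for kel-8. The culture arrays were among those that chose these probe sets, so their log2 changes of -0.71 to -1.18 in the culture are given as a description. For kel-8 the signal was 370, 360 and 334 in Z-medium and 176, 149 and 181 in the culture, and its water replicate 3, at 215, was low as it was for acox-1.5.

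**Figure D3:**
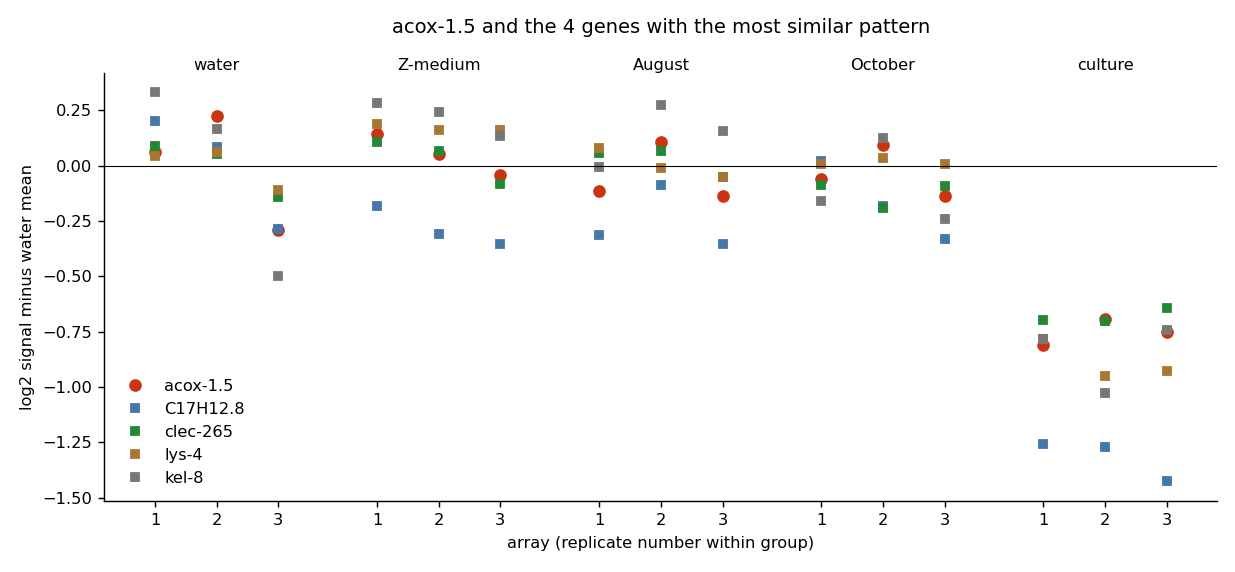
Log2 signal of each of the 15 arrays minus the mean of the 3 water arrays (y axis), for acox-1.5 (red circles) and the 4 genes with the most similar pattern (squares, 1 probe set per gene), with arrays along the x axis by group and replicate number. The culture arrays are the lowest for each of the 5 genes, with acox-1.5 at 531 to 576 in linear signal.

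Genes that act around this pathway were counted with 1 probe set per gene, the brightest. Over all probe sets in the culture comparison, 1.54% passed, 15.2% had an unadjusted p under 0.05 and 19.1% had arrays that did not overlap. Of 10 tested genes for peroxins, which import proteins into peroxisomes and build them, 0 passed in the culture in limma (median log2 change -0.05; 1 with an unadjusted p under 0.05). Of 4 tested ABC transporter genes of the peroxisomal membrane 1 fell, pmp-5, and 3 did not pass (median -0.34; 2 with an unadjusted p under 0.05). The gene pmp-5 read 3843, 3200 and 3430 in Z-medium and 2833, 2322 and 2554 in the culture, without overlap. Its change was -0.44 ± 0.09 (limma adjusted p = 0.0232), which 7 of 15 alternatives ended, up to 0.119 without Z-medium replicate 1. Of 13 tested genes for other peroxisomal enzymes 0 passed in limma (median -0.04; 3 with an unadjusted p under 0.05), and of 5 tested genes that modify ascarosides, such as the acyl-CoA synthetase gene acs-7 and carboxylesterase genes, 0 passed (median 0.05; 0 with an unadjusted p under 0.05).

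Mitochondrial beta-oxidation, the counterpart route for shorter fatty acids, had 2 falls, 0 rises and 14 that did not pass among 16 tested genes, with a median of 0.08 in the culture. An unadjusted p under 0.05 was seen for 4 of the 16 (15.2% of all probe sets). The genes that fell were hacd-1, of the hydroxyacyl-CoA dehydrogenase family, and ech-7, of the enoyl-CoA hydratase family. The signal of hacd-1 was 2564, 2231 and 2546 in Z-medium and 1644, 1631 and 1757 in the culture (-0.54 ± 0.10, limma adjusted p = 0.00957). That of ech-7 went from 1539 ± 88.3 to 1073 ± 89.2 (SD, n = 3; -0.52 ± 0.10, adjusted p = 0.0132). Both calls ended under median scaling of the arrays (0.0635 and 0.107) and without Z-medium replicate 1 (0.0518 and 0.0630), and that of ech-7 also without culture replicate 3 (0.0767).

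Of 8 regulator genes of lipid metabolism tested, among them nhr-49, mdt-15 and daf-16, 0 passed in the culture in limma (median -0.10; 0 with an unadjusted p under 0.05). The genes that read ascaroside signals lay mostly under the filter in these whole-worm samples. Of 8 ascaroside receptor genes on the array 1 was tested, and of 8 genes of the pheromone response 2 were tested, with 0 past the test in limma and 0 at an unadjusted p under 0.05. In the August and October comparisons 0 genes of all these pathway lists passed in limma. In each, 1 gene of the mitochondrial list had an unadjusted p under 0.05 (3.05% and 2.11% of all probe sets).

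**Figure D4:**
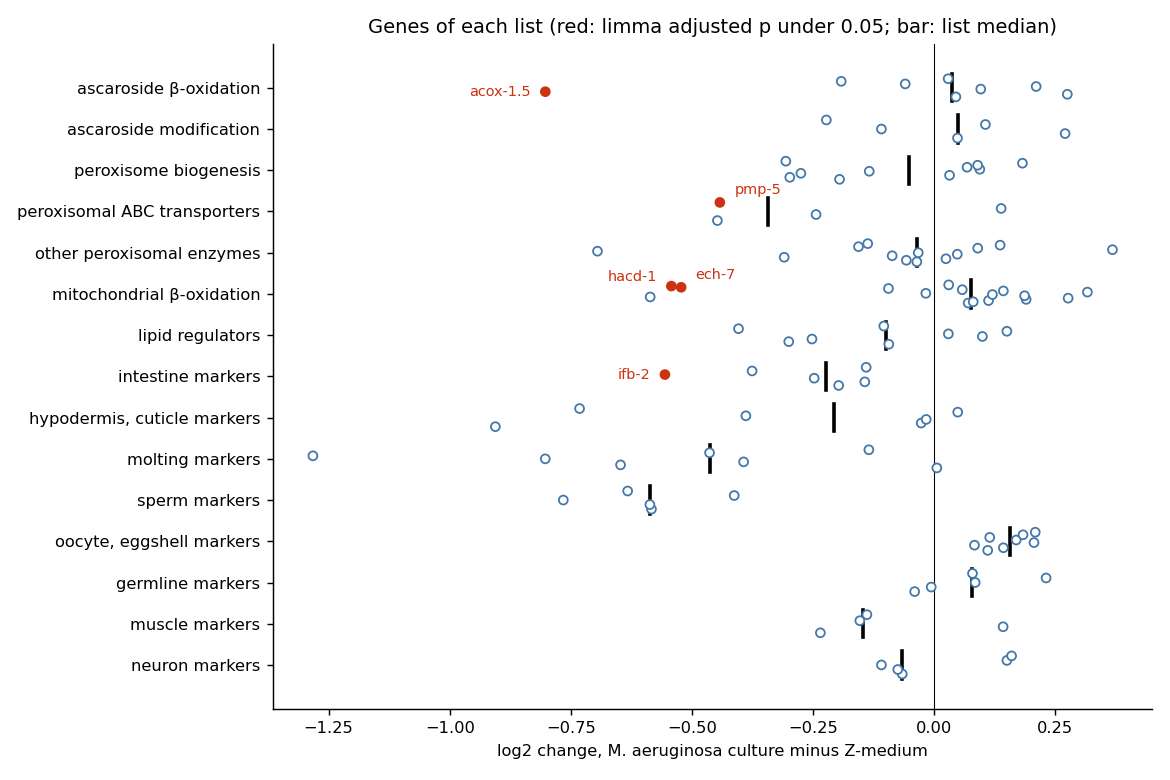
Log2 change in the M. aeruginosa culture against Z-medium (x axis) of the tested genes of each list (rows; 1 circle per gene, on its brightest probe set), with a bar for the list median and red for genes past the limma test. In the row of ascaroside beta-oxidation genes acox-1.5 lies at -0.80 and the other 7 genes lie between -0.19 and 0.27.

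Of the tissue markers tested, 1 passed in the same comparison as acox-1.5. In that comparison 49.2% of all probe sets had a negative change and 15.2% an unadjusted p under 0.05. All 6 intestine markers had a negative change in the culture (median -0.22; 2 with an unadjusted p under 0.05). The one that fell was ifb-2, an intermediate filament gene of the intestinal cell border (-0.56 ± 0.13, limma adjusted p = 0.0492). That call ended in 13 of 15 alternatives, up to 0.227. The summed signal of the intestine markers was 10840 to 13315 over the culture arrays and 12813 to 15712 over those of Z-medium, so the groups overlapped. Such linear sums follow the brightest markers of a list and say little of the dimmer ones. The sum of the 7 molting markers was 1860 to 2069 in the culture and 2312 to 2920 in Z-medium, without overlap, and 6 of 7 had a negative change (median -0.46; 0 past the test in limma, 4 with an unadjusted p under 0.05).

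For the 6 hypodermis and cuticle markers the sums overlapped, at 24716 to 32403 in the culture and 26567 to 30900 in Z-medium. These sums were mostly dpy-13 (mean 21528 in Z-medium) and col-19 (6024). The change was negative for 5 of 6 (median -0.21; 0 past the test in limma, 2 with an unadjusted p under 0.05). Among them, mean signal went from 424 in Z-medium to 253 in the culture for rol-6 and from 346 to 177 for bli-1. The bli-1 arrays in Z-medium read 537, 254 and 248, so that mean rested largely on replicate 1. Mean signal went from 207 to 155 for dpy-7, from 6024 to 5928 for col-19, from 21528 to 21393 for dpy-13 and from 704 to 726 for elt-3. All 5 tested sperm markers were negative (median -0.59) and all 8 oocyte and eggshell markers positive (median 0.16), with 0 past the test in limma and 2 at an unadjusted p under 0.05 in each list. The summed signal of the 7 sperm markers on the array was 1541 to 2683 in the culture and 2041 to 4051 in Z-medium, and that of the oocyte and eggshell markers 66427 to 73758 and 57571 to 68368, both with overlap. The medians were 0.08 for 5 germline, -0.15 for 4 muscle and -0.07 for 5 neuron markers. With replicate number as a block, 3 of 5 sperm and 4 of 7 molting markers passed as lower in limma. So did 2 of 6 hypodermis and cuticle and 2 of 6 intestine markers, against 7.38% of all probe sets. In that fit 1 of 5 germline markers passed as higher (1.82% of all). The part of these marker shifts in the acox-1.5 result was not tested.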

How the data were processed

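Per the submitters' processing notes, the deposited values were made with MAS5 in Affymetrix Expression Console 1.2.0.20. The authors' deposited unit is linear probe set signal intensity, and each array's mean after trimming 2% at each end was 500.123 to 500.137. No detection calls or genome build were used here. The log2 of each signal was used, without an offset. The 77 control probe sets and the others with a mean log2 signal below the 40th percentile (5.86) were left out of the tests. Gene symbols came from the array annotation, updated by gene ID: 20766 probe sets had 1 symbol, 887 several and 895 none. One linear model with a mean per group was fitted to 15 arrays in limma 3.58.1 (R 4.3.3; eBayes with intensity trend, 10 residual degrees of freedom), and a probe set passed at an adjusted p under 0.05. The fit was tested on simulated data with independent noise on each array. That simulation held no difference shared by replicate 1 arrays, so it does not cover that feature of the data. No permutation p is given, since 3 arrays against 3 allow 0.1 at the smallest. Arrays limit the precision by their number. Replicates are labelled biological, with no batch named.

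All 10 members are named on every probe set. Of the other lists, up to 4 genes past the test in a main comparison are named, and the 5 probe sets most like each member past the test. Outside that rule, acs-7, nhr-49, mdt-15 and daf-16 are named as examples of their lists. The 6 hypodermis and cuticle markers are also named outside it, with their means. None of these genes passed the test in a main comparison. The members and lists were chosen with earlier results of these data known. Same-numbered arrays deviated together (every r over 0.1) for August and water, October and August, and Z-medium and water, where replicate number as a block changed no member's call. For October and water r was 0.467, 0.0644 and 0.138 in replicates 1 to 3. For culture and Z-medium it was 0.357, -0.0325 and 0.263, so not every pair deviated together. Alternatives covered normalization, scaling, an offset, the filter, the trend, the samples fitted, the replicate number and single arrays left out.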

Additional observations from a re-analysis of the deposited data

How the results depend on the processing

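The count of member probe sets past the test was the same in every alternative for the comparisons of each exposure with its control, October with August and Z-medium with water. For the difference of the culture and lake effects it became 1, acox-1.5, with the replicate block (480 of all probe sets then passed, against 36) and in 1 of the fits without 1 array (range 0 to 1). Of 865 member values that passed in neither setting, 72 changed sign, and 20 of 882 moved by over 1 SE. In the alternatives run no call on a member was lost or turned. Same-numbered culture and Z-medium arrays deviated together in replicates 1 and 3 (r = 0.357 and 0.263) but not in replicate 2 (r = -0.0325). With replicate number as a block the culture comparison gave 1245 probe sets against 209, and of the tested markers 4 of 7 for molting, 3 of 5 for sperm, 2 of 6 for hypodermis and cuticle and 2 of 6 for intestine passed as lower and 1 of 5 for germline as higher, against 1 for intestine and 0 for the others. Of the pathway lists it gave 3 falls and 1 rise in mitochondrial beta-oxidation and 1 of each among other peroxisomal enzymes. It gave 534 excluding the 5 replicate 1 arrays, which was 106 for the difference of effects, and 117 with only the groups compared. Leaving out 1 array gave 89 to 229 in the culture (Z-medium replicate 1 out, 89; Z-medium replicate 2 or culture replicate 2 out, 92 each; culture replicate 3 out, 100) and 21 to 45 for the difference of effects (21 without water replicate 3). Under median scaling, which moved the median of all probe sets in the culture by 0.11, 36.9% of calls were higher against 23%. In that setting the change of acox-1.5 was -0.69 and still passed (limma adjusted p = 0.0117). With the block August and October against water gave 2 each, against 1 and 0, and October gave 1 under median scaling. October against August gave 1 (quantile normalization, the 20th percentile filter, no trend, only the groups compared), 4 (no filter) or 5 (excluding the replicate 1 arrays) against 2, and 1 to 3 without 1 array. The causes were not tested. The same alternatives were applied to pmp-5, ech-7, hacd-1, ifb-2 and the shared probe set after seeing the data.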
